A study of Mus musculus with 18 samples.

Results

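Replication-dependent histone genes were examined in the infrarenal aorta of mice with elastase-induced abdominal aortic aneurysm (AAA), in lenvatinib-treated aneurysms and in normal aorta. The members were all genes of the Hist1, Hist2, Hist3 and Hist4 families that a transcript cluster of the Mouse Transcriptome Array 1.0 named alone, with 1 cluster per gene. These were 52 of 36232 genes named in this way and 52 of 65956 clusters in all. They comprised 5 genes of the linker histone H1 and 13, 16, 8 and 10 genes of the core histones H2A, H2B, H3 and H4. A further 15 clusters that name several histone or neighbouring genes were kept apart.

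Normal aortas came from untreated mice (n = 5). PPE aortas had received porcine pancreatic elastase (PPE), which dilates the vessel (n = 6). PPE + Lenva systemic aortas came from mice with the same operation that were gavaged each day from day 7 to day 24 with lenvatinib, a multi-tyrosine kinase inhibitor, at 5 mg/kg in DMSO (n = 7). Tissue of the operated mice was taken on day 28. All mice were males and AAA was induced at 10 weeks of age. The age recorded for the mice with normal aorta is also 10 weeks, without a day of tissue collection. Whether they matched the operated mice in age at collection was not settled. The labels give the genotype ApoE-/- for the mice with PPE, while the methods of the study name wild-type C57BL/6J mice for the PPE model, so the strain was not settled. A sham operation is not described for them, so surgery and elastase cannot be told apart. A vehicle for the PPE group is not described in the labels, so lenvatinib, DMSO and gavage cannot be told apart in PPE + Lenva systemic vs. PPE. Each array held RNA from a tissue piece about 1 mm long, and RNA integrity numbers ranged from 5.7 to 9.8 over the series.

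Histones are the proteins around which DNA is wound. H2A, H2B, H3 and H4 form the core of the nucleosome, and H1 binds the linker DNA between nucleosomes. The genes studied here are transcribed mainly in S phase, when newly copied DNA has to be packaged, and most of their mRNAs end in a stem-loop bound by stem-loop binding protein (Slbp) in place of a poly(A) tail. They lie in clusters and many H2A and H2B genes share a short promoter from which they are read in opposite directions. Adult vessel wall cells rarely divide, whereas smooth muscle cells and leukocytes of an injured wall can enter the cell cycle.

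Promoters of 4 members that are named in the results below are shown. The promoters were taken from RefSeq (GRCm38.p6) for 44 of the 52 members, each with 250 bases before and 50 bases after the start. Below, the 250 bases before the start are given 5′ to 3′ on the strand of the gene, and capitals mark CCAAT and TATAAA on either strand (ATTGG and TTTATA where the match is on the other strand). The regions are chr13:21753826-21754075 (plus strand) for Hist1h2bn, chr13:21716184-21716433 (minus) for Hist1h2bl, chr13:23562386-23562635 (minus) for Hist1h3e and chr13:23698459-23698708 (minus) for Hist1h4c.
Hist1h2bn: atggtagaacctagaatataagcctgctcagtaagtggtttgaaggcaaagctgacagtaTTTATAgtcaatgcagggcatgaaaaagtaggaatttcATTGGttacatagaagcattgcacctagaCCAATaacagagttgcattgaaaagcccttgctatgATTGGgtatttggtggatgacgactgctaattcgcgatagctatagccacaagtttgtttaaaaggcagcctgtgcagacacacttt
Hist1h2bl: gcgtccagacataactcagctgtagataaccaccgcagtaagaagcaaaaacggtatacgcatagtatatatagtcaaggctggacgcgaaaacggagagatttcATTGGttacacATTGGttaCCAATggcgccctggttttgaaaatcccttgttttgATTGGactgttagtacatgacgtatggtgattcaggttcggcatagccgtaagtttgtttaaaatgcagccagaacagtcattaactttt
Hist1h3e: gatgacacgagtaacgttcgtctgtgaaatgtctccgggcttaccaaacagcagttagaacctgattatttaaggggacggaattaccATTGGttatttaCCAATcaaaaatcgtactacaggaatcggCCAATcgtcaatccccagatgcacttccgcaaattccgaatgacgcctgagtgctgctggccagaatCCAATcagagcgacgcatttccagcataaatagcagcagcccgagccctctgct
Hist1h4c: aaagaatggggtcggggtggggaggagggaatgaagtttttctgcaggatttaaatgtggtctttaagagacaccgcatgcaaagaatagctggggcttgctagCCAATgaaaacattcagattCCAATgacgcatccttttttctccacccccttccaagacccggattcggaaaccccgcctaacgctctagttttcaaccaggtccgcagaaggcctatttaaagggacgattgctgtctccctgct

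CCAAT, the letters bound by NF-Y (subunits Nfya, Nfyb and Nfyc), occurred 3 times before Hist1h2bn, 4 times before Hist1h2bl, 4 times before Hist1h3e and 2 times before Hist1h4c. In Hist1h2bn the matches lay 152, 123 and 87 bases before the start. On either strand of the 300-base windows, CCAAT was present in 38 of 44 members (86.4%), compared with 37.9% of 27025 promoters of all genes. It was present at least 2 times in 32 members (72.7%, compared with 12.2%). TATAAA was present in 27 members (61.4%, compared with 14.2%), and 24 members held both (54.5%, compared with 5.55%). No matches of the 2 motifs overlapped in a member promoter. By class, CCAAT was found in 5 of 5 H1, 11 of 11 H2A, 13 of 13 H2B and 6 of 6 H3 promoters but in 3 of 9 H4 promoters. Windows of divergent partners can share bases, as do those of Hist1h2bn (chr13:21753826-21754125) and Hist1h2ak (chr13:21753863-21754162). A match in shared bases counts for each partner, in the counts by class too, so the 44 are not separate promoters. A match describes the letters only.

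Of the 52 members, 43 lie on chromosome 13, 6 on chromosome 3, 2 on chromosome 11 and 1 on chromosome 6 (genome build mm10). The detection call deposited by the authors was positive for all 52 in PPE aorta and for 51 in normal and in treated aorta, the exception being Hist1h1t, the linker histone of the testis. Signals are on a log2 scale, so that a difference of 1 is a 2-fold change. Values for each array were deposited for 25 members (48.1%) and for 11121 clusters in all (16.9%). In a refit of the 3 groups, 98.2% of those clusters passed an F test at an unadjusted p under 0.05, so this table was selected for differences and the 25 members in it are not a random sample of the 52. The other 27 members were tested from the deposited group averages and SDs. Histone coding sequences of a class are nearly identical, and probes of a cluster may also bind mRNA of other copies, so the assignment of a signal to a particular copy is uncertain throughout. Signals of different clusters are not set against each other as levels, since they depend on the probes. Smooth muscle genes were detected in all groups. Myh11 had log2 signals of 17.42, 17.19, 17.48, 15.51 and 15.26 in normal aorta, so that replicates 4 and 5 stood below the others, and Acta2 was at the upper limit of the scale (19.93) in all 3 groups.

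In PPE vs. normal aorta, genes from each of the 4 core classes were higher in the aneurysms. Of the 52 members, 9 were higher and 0 were lower (limma, Benjamini-Hochberg adjusted over all 65956 clusters), compared with 1.41% of all clusters higher and 2.62% lower (4.03% in either direction). The difference was above 0 in 49 of 52 members, compared with 40.1% of all clusters, and its median was 0.42, compared with -0.02 over all clusters. At an unadjusted p under 0.05, 28 members were higher and 0 lower, compared with 7.57% and 11.2% of all clusters. The members called were Hist1h2ab and Hist1h2ah (H2A), Hist1h2ba, Hist1h2bf, Hist1h2bl, Hist1h2bn and Hist2h2bb (H2B), Hist1h3f (H3) and Hist1h4c (H4). The median difference was 0.17 in H1, 0.55 in H2A, 0.37 in H2B, 0.41 in H3 and 0.32 in H4. RNA of whole tissue was measured, and more cells in S phase cannot be told apart from more histone RNA per cell.

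**Figure D1:**
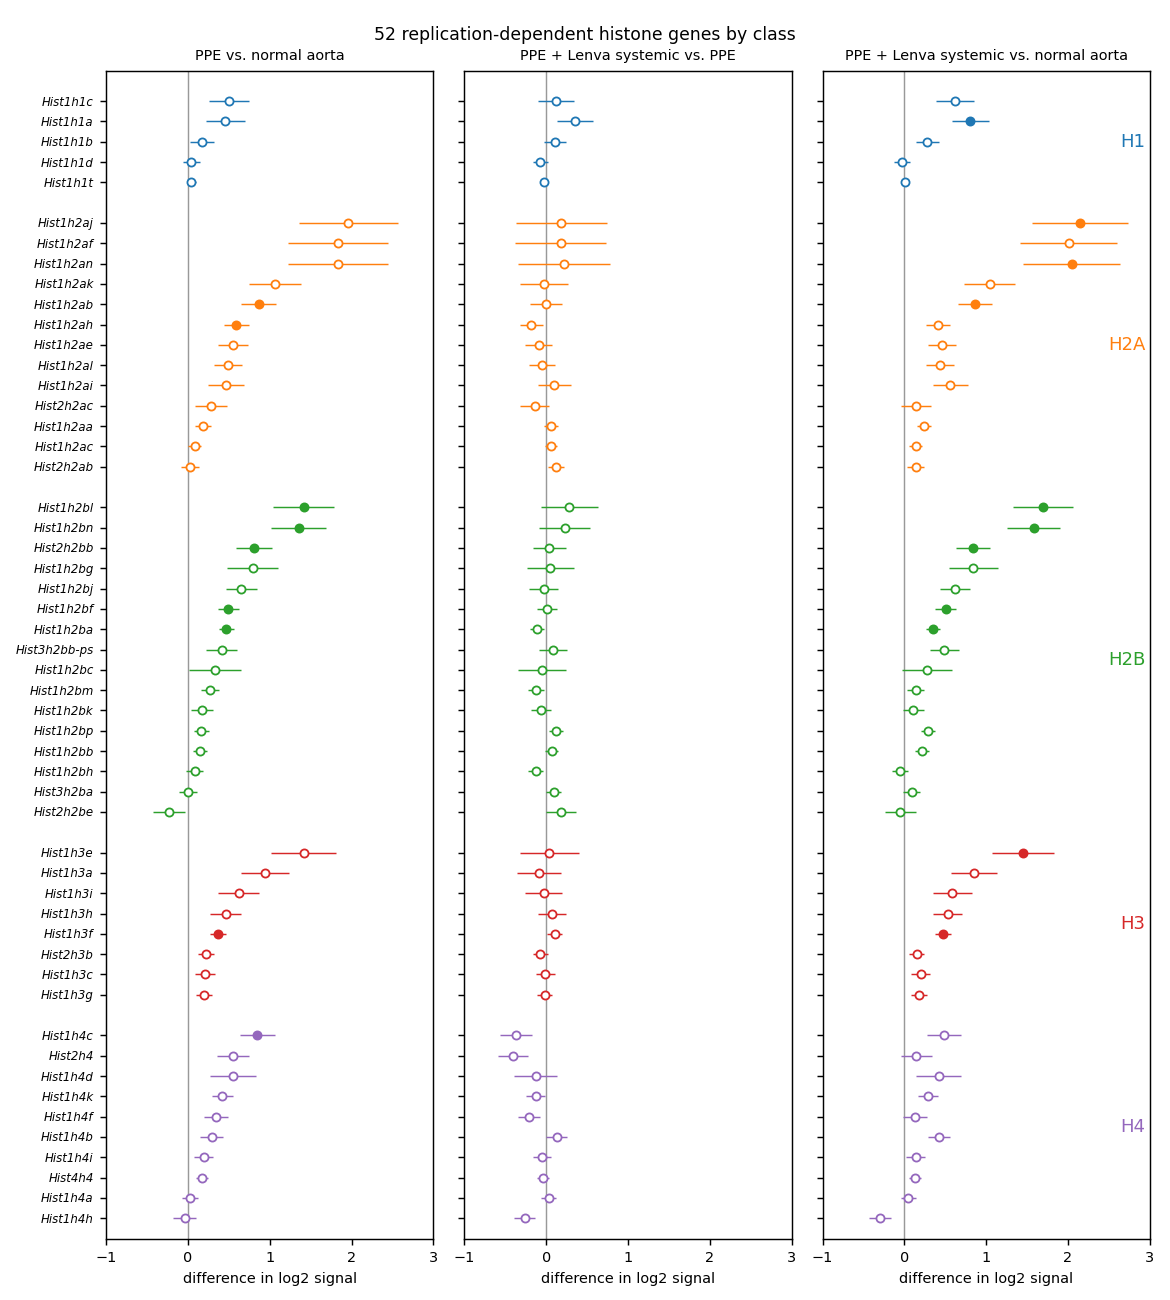
Differences in log2 signal of the 52 histone genes, grouped by class, in the 3 comparisons; points are differences, bars 1 standard error, and filled points passed an adjusted p of 0.05 (limma). In the left and right panels 49 and 48 of 52 points lie above 0, in the middle panel 25.

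The calls lay close to the threshold. Adjusted p-values of the 9 members ranged from 0.0063 to 0.048 (limma), and the count changed with single arrays. It was 5 without normal aorta replicate 1, 4 without replicate 2, and 3 without replicate 3 or replicate 4. It was 3 without PPE replicate 1, 2 or 3, 2 without PPE replicate 4, 14 without PPE replicate 5, and 5 without PPE + Lenva systemic replicate 6. Hist1h2ba was called in each of the 18 fits that left out 1 array. In these fits clusters without values per array kept their results from all arrays. With the deposited averages in place of array means the count was again 9, but 6 of the 9 members were kept. Hist1h2ab (adjusted p = 0.10), Hist1h4c (adjusted p = 0.12) and Hist2h2bb (adjusted p = 0.057) lost their call there.

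Hist1h2ba encodes the testis-specific H2B of spermatogenic cells. Its log2 signals in normal aorta were 4.65, 4.45, 4.32, 4.57 and 4.3, and PPE aortas ranged from 4.68 to 5.09 (median 4.93). Every PPE aorta was higher than every normal aorta. The difference was 0.47 (standard error 0.089, adjusted p = 0.0063, limma), a 1.38-fold change. Its divergent neighbour Hist1h2aa, the testis-specific H2A, differed by 0.18 (adjusted p = 0.32), and Hist1h1t by 0.04 (adjusted p = 0.79). Thus among the 3 germ cell histones 1 was called.

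Among the H2B genes of dividing cells, Hist1h2bl showed the largest called difference. Its log2 signals in normal aorta were 8.58, 8.16, 7.24, 8.66 and 9.06, and in PPE aorta they ranged from 8.62 to 10.36 (median 9.89). The groups overlapped through PPE replicate 5, the lowest PPE array, and normal aorta replicates 4 and 5. The difference was 1.41 (standard error 0.37, adjusted p = 0.043, limma), a 2.66-fold change, and the call was lost in 11 of 18 fits without 1 array (highest adjusted p = 0.12, without normal aorta replicate 3).

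Hist1h2bn behaved in a similar way. Normal aortas had log2 signals of 8.42, 8.16, 7.46, 8.28 and 8.83, and PPE aortas ranged from 8.57 to 10.21 (median 9.77). Only PPE replicate 5 lay within the range of the normal aortas. The difference was 1.36 (standard error 0.34, adjusted p = 0.031, limma), and the call was lost in 7 of 18 fits without 1 array (highest adjusted p = 0.095, without normal aorta replicate 3).

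Hist2h2bb, on chromosome 3, had log2 signals of 5.46, 5.55, 5.11, 5.52 and 5.61 in normal aorta and 5.73 to 6.59 (median 6.24) in PPE aorta. All PPE aortas were above all normal aortas. The difference was 0.80 (standard error 0.22, adjusted p = 0.046, limma), and 13 of 18 fits without 1 array lost the call. Hist1h2bf differed by 0.49 (standard error 0.13, adjusted p = 0.046, limma), again without overlap, with normal aortas from 4.32 to 4.72 and PPE aortas from 4.77 to 5.2. This call was lost in 12 of 18 such fits. Hist1h2bc and Hist2h2be are H2B genes known to give polyadenylated mRNA in differentiated cells. Their averages were 11.36 and 6.95 in normal aorta and 11.69 and 6.72 in PPE aorta, with differences of 0.33 (adjusted p = 0.67) and -0.23 (adjusted p = 0.62).

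Of the H2A genes, Hist1h2ab had log2 signals of 4.42, 4.61, 3.85, 4.32 and 4.77 in normal aorta and 4.87 to 5.82 (median 5.1) in PPE aorta. The groups did not overlap. The difference was 0.87 (standard error 0.21, adjusted p = 0.030, limma), and the call was lost in 5 of 18 fits without 1 array. Hist1h2ah, known from averages only, was 4.87 ± 0.17 (SD, n = 5) in normal and 5.46 ± 0.31 (SD, n = 6) in PPE aorta, a difference of 0.59 (adjusted p = 0.034, limma). It is absent from the table with values per array, of which 98.2% passed the F test. Its call sets a biweight average against a plain SD, and its arrays could not be checked. Of the 54835 clusters outside that table, 42 were called in this comparison (limma).

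The largest differences of all members were found in Hist1h2aj, Hist1h2af and Hist1h2an, but none of these was called. Hist1h2aj had log2 signals of 12.18, 11.54, 9.84, 11.95 and 12.52 in normal aorta and 11.62 to 14.57 (median 14.01) in PPE aorta. Normal aorta replicate 3 was far below the others, and PPE replicate 5 lay within the normal range. The difference was 1.96, or 3.89-fold, with a standard error of 0.61 (adjusted p = 0.079, limma). Hist1h2af, named here after its values were seen, differed by 1.83 (adjusted p = 0.10) and Hist1h2an also by 1.83 (adjusted p = 0.10). These 3 clusters followed each other closely. The gap between Hist1h2aj and Hist1h2an changed by 0.49 over the 18 arrays and that between Hist1h2aj and Hist1h2af by 0.44, while Hist1h2aj itself spanned 5.43. Whether they are separate measurements was not tested.

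**Figure D2:**
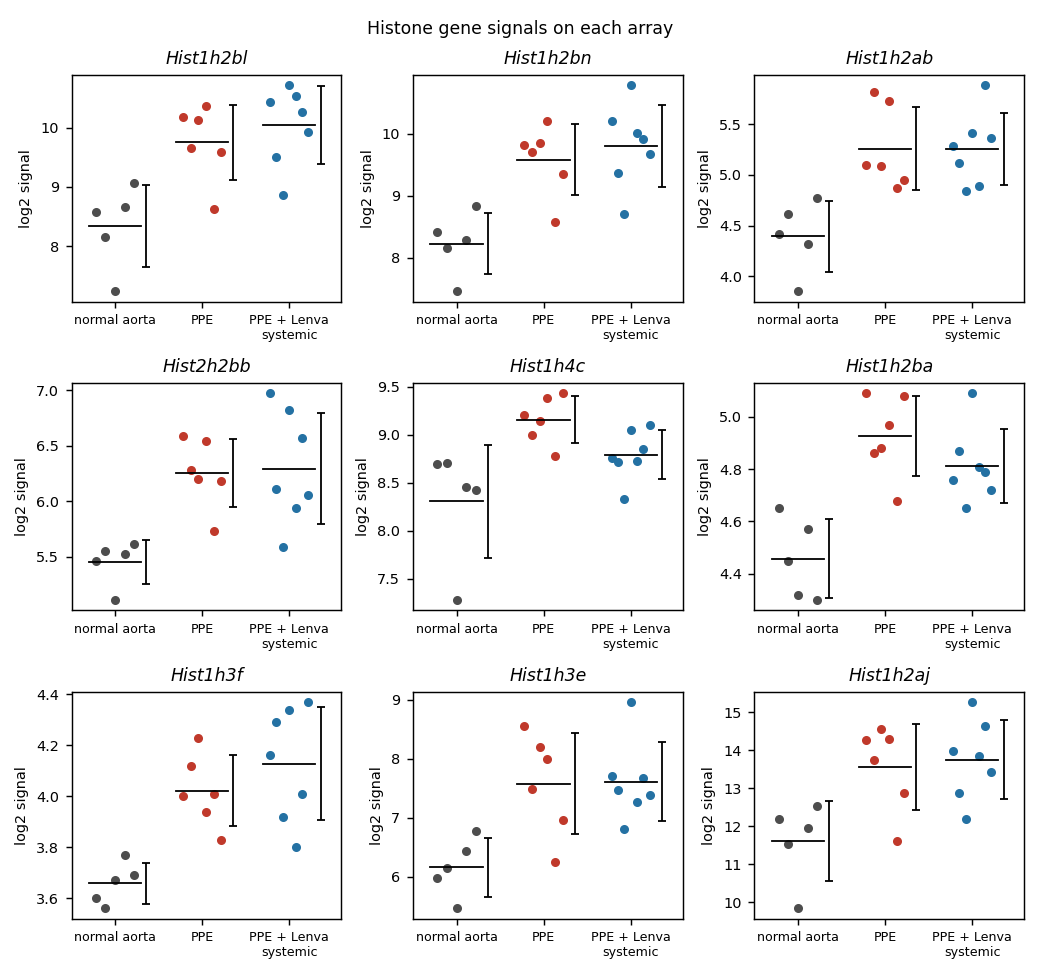
Log2 signals of 9 histone genes on each array; dots are arrays in replicate order from left to right, horizontal lines group means, and bars beside them the mean ± 1 SD (n = 5, 6 and 7). Hist1h2ab, Hist2h2bb, Hist1h4c, Hist1h2ba and Hist1h3f show no overlap between PPE and normal aorta, whereas Hist1h2bl, Hist1h2bn, Hist1h3e and Hist1h2aj overlap through a low PPE array.

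Among the H3 genes, Hist1h3f had log2 signals of 3.6, 3.56, 3.67, 3.77 and 3.69 in normal aorta, and PPE aortas ranged from 3.83 to 4.23 (median 4.01). The groups did not overlap, although the difference was small at 0.36 (standard error 0.099, adjusted p = 0.048, limma), and 12 of 18 fits without 1 array lost the call. Averages of this gene in normal and PPE aorta (3.66 and 4.01) lay below the median over all clusters (4.09). Hist1h3e had log2 signals of 5.97, 6.14, 5.46, 6.44 and 6.78 in normal aorta and 6.25 to 8.55 (median 7.74) in PPE aorta. Here PPE replicate 5 was below 2 of the normal aortas. The difference of 1.41 (standard error 0.40) missed the threshold (adjusted p = 0.055, limma).

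Hist1h4c was the H4 gene called. Its log2 signals in normal aorta were 8.69, 8.7, 7.28, 8.45 and 8.42, and those in PPE aorta ranged from 8.78 to 9.43 (median 9.18). The groups did not overlap, and normal aorta replicate 3 was far lower than the other normal aortas. The difference was 0.85 (standard error 0.21, adjusted p = 0.033, limma), it was 0.59 without normal aorta replicate 3, and the highest adjusted p in the fits without 1 array was 0.078 (without PPE replicate 4). Hist1h4d, known from averages, was 10.52 ± 0.64 (SD, n = 5) in normal and 11.07 ± 0.40 (SD, n = 6) in PPE aorta, a difference of 0.55 (adjusted p = 0.31).

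No H1 gene was called. Hist1h1c, which is also expressed in nondividing cells, had log2 signals of 6.17, 6.3, 5.84, 6.21 and 6.46 in normal aorta and 5.97 to 7.77 (median 6.57) in PPE aorta. The groups overlapped, and the difference was 0.50 (standard error 0.24, adjusted p = 0.27, limma).

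Over the 25 members with values per array, every PPE array exceeded every normal array in 7, compared with 6.68% of the 11121 clusters of that table. These were the 6 called members with arrays named above without overlap and Hist1h2bj, an H2B gene with a difference of 0.65 (adjusted p = 0.065). SDs within groups varied widely between members, from 0.04 (Hist2h3b) to 1.11 (Hist1h2af) in normal aorta and from 0.07 (Hist2h2ab) to 1.23 (Hist1h2an) in PPE aorta.

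Genes of 9 H2A and H2B pairs lay head to head with their array clusters at most 500 bases apart on the mm10 coordinates, and these 18 members were compared with their partners. In 4 pairs 1 partner was called and in 0 pairs both. Hist1h2bn and Hist1h2ak, whose clusters lie 210 bases apart, differed by 1.36 and 1.07 between PPE and normal aorta, the latter with an adjusted p of 0.070. Hist1h2bl differed by 1.41 and its partner Hist1h2ai by 0.46 (adjusted p = 0.27). Hist1h2an differed by 1.83 and Hist1h2bp by 0.16 (adjusted p = 0.36). The clusters of Hist1h2aj and Hist1h2bm overlap on opposite strands by 88 bases, and their differences were 1.96 and 0.27 (adjusted p = 0.16). Hist1h2bp and Hist1h2bm averaged 3.67 and 3.76 in normal aorta, below the median over all clusters (4.09). Signals that low may hide a change, so the gap to their partners cannot be read as separate regulation. Differences between partners were not tested.

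**Figure D3:**
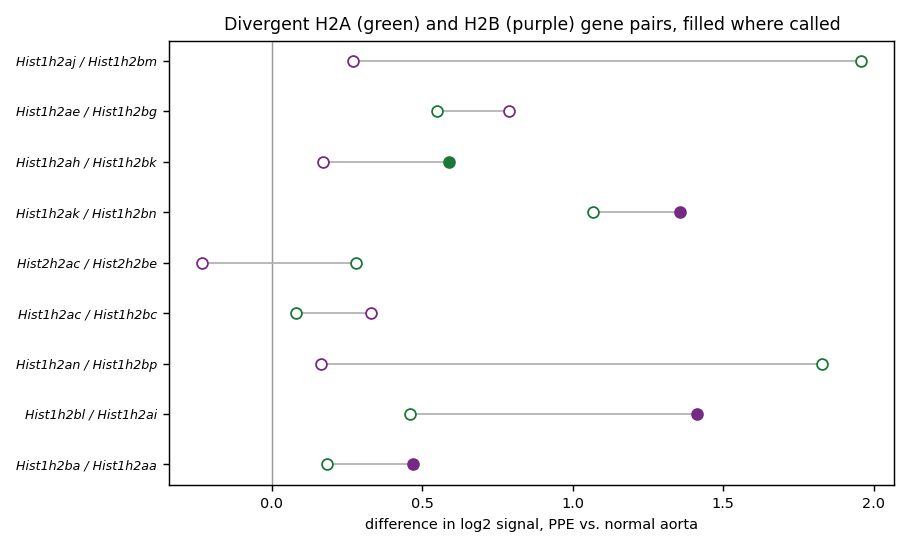
Differences in log2 signal between PPE and normal aorta for 9 divergent gene pairs, ordered by the distance between their clusters, with H2A genes in green, H2B genes in purple and filled points for called genes. The partners lie from 0.24 (Hist1h2ae and Hist1h2bg) to 1.69 (Hist1h2aj and Hist1h2bm) apart. Average signals of Hist1h2bm and Hist1h2bp lay below the median over all clusters.

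Within groups the same arrays were low or high for many members, and several of these arrays were also low or high for other cell cycle genes. PPE replicate 5 was the lowest PPE array in 18 of 25 members, in 21 of 21 mitosis genes and in 16 of 19 DNA replication genes with values per array. PPE + Lenva systemic replicate 3 was the lowest of its group in 21 of 25 members, 16 of 21 mitosis genes and 14 of 19 DNA replication genes. Replicate 4 of that group was the highest in 14, 15 and 12 of these genes. How often these arrays were lowest or highest over all clusters was not counted.

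In normal aorta the picture was mixed. Replicate 5 was the highest array in 16 of 25 members, 20 of 21 mitosis genes and 12 of 19 DNA replication genes. Replicate 3 was the lowest in 17 of 25 members but in 4 of 21 mitosis genes. Macrophage genes shared some of this order, as PPE replicate 5 was the lowest PPE array in 12 of 13 macrophage genes, treated replicate 3 the lowest of its group in 8 of 13 and normal aorta replicate 3 in 8 of 13. Lymphocyte genes did so too, with PPE replicate 5 the lowest in 5 of 7 and normal aorta replicate 5 the highest in 6 of 7. Normal aorta replicate 5 was the lowest in 7 of 8 contractile smooth muscle genes and in 6 of 6 endothelial genes, whereas PPE replicate 5 was the lowest in 0 of 8 and 0 of 6. The part of these cell types in the order of the arrays was not tested. Tied arrays were counted for each gene they shared.

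**Figure D4:**
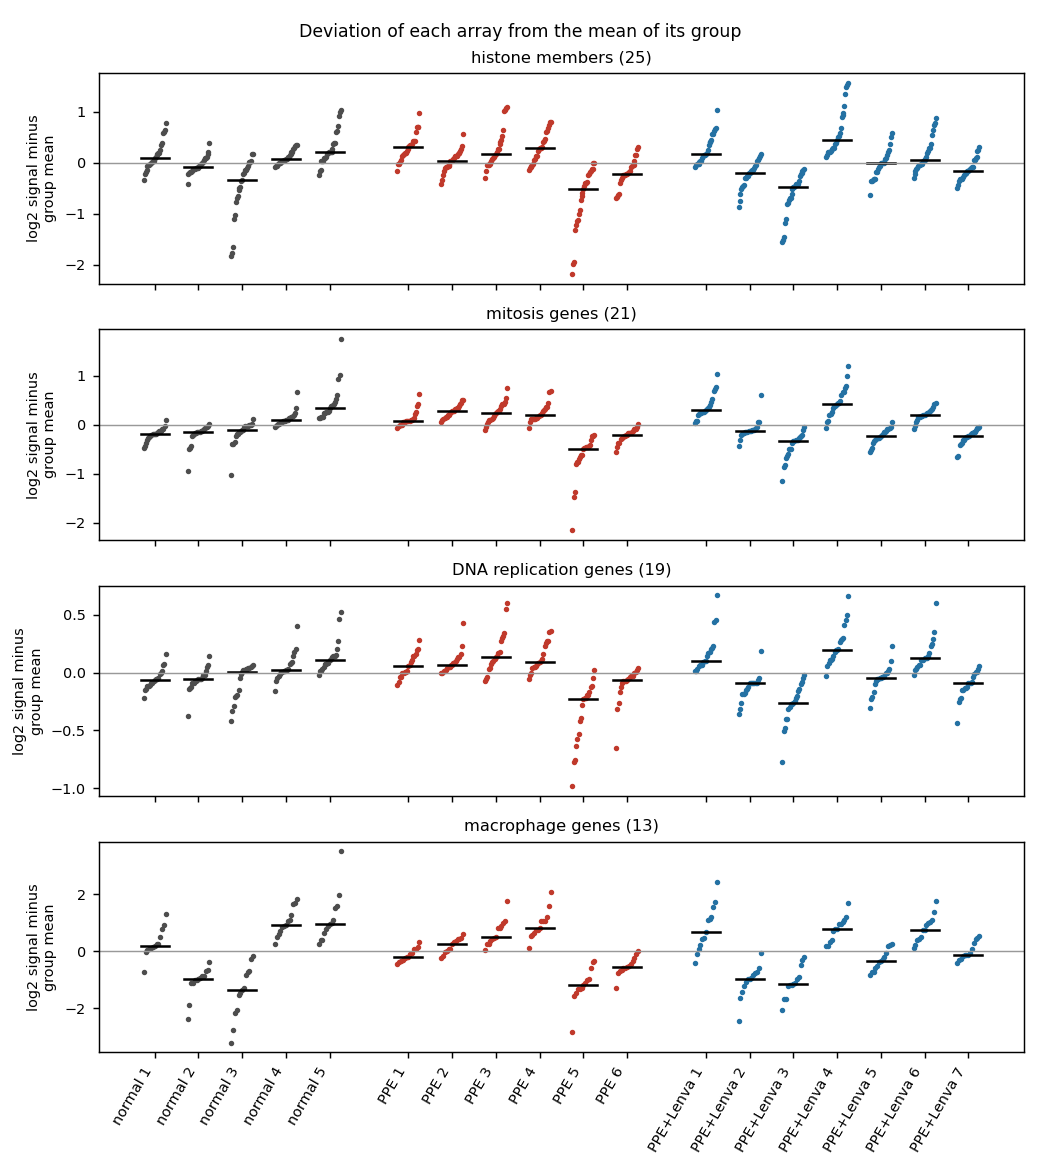
Deviation of each array from the mean of its group in log2 signal, with 1 dot per gene and a horizontal line at the median over genes, for histone members, mitosis, DNA replication and macrophage genes with values per array. PPE replicate 5 and PPE + Lenva systemic replicate 3 lie low in all 4 panels, with a mean deviation of -0.72 and -0.63 in the histone members.

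Markers of some other cell types differed between the same groups. In PPE vs. normal aorta, 11 of 13 macrophage and myeloid markers were higher, and 2 of 11 markers of T and B lymphocytes. Of the markers of contractile smooth muscle, 6 of 9 were lower, and of the endothelial markers 4 of 7. Called were 0 of 6 fibroblast, 0 of 5 adipocyte and 0 of 6 neutrophil markers, and 1 of 2 erythroid markers was lower. Over all clusters 1.41% were higher and 2.62% lower. The log2 of the summed macrophage signal ranged from 14.54 to 19.03 in normal and from 18.85 to 19.77 in PPE aorta, and all 13 were called expressed in both groups. The summed smooth muscle signal ranged from 17.87 to 19.12 in normal and from 17.14 to 17.64 in PPE aorta. The summed lymphocyte signal ranged from 7.67 to 8.59 and from 9.14 to 13.11, and the summed endothelial signal from 12.31 to 14.91 and from 11.67 to 12.55. These sums add signals before the log is taken, so the brightest clusters weigh most. Lyz2 alone ranged from 14.16 to 18.9 in normal and from 18.62 to 19.07 in PPE aorta. Jchain reached 13 in PPE replicate 1. The sums therefore do not measure the amount of a cell type. The part of cell composition in the histone differences was not tested.

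Genes for DNA replication and mitosis, which act in S phase and in cell division, lay mostly on the same side. Over all clusters 40.1% lay above 0, 1.41% were called higher and 7.57% were higher at an unadjusted p under 0.05 (limma). All 27 DNA replication genes had a difference above 0 in PPE vs. normal aorta (median 0.14), and 1 of them was called, Tk1, the thymidine kinase of S phase, at 0.30 (adjusted p = 0.042, limma). All 26 mitosis genes also had a difference above 0 (median 0.39), with 0 called and 21 higher at an unadjusted p under 0.05 (limma). The largest was Mki67, the gene of the proliferation antigen Ki-67, at 2.14 (standard error 0.60, adjusted p = 0.054). Top2a, a topoisomerase of dividing cells, differed by 1.22 (adjusted p = 0.10), Birc5, which encodes survivin, by 0.20 (adjusted p = 0.079) and Aurkb, a mitotic kinase, by 0.23 (adjusted p = 0.10).

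Genes that transcribe, process or carry histones are given beside all clusters, of which 4.03% were called in either direction. At an unadjusted p under 0.05, 7.57% of all clusters were higher and 11.2% lower (limma). Of 15 genes for stem-loop binding and histone mRNA processing, 0 were called and 4 were higher at an unadjusted p under 0.05 (limma), with a median difference of 0.10. Slbp was at 0.16 (adjusted p = 0.10), Eri1, an exonuclease that trims histone mRNA, at 0.35 (adjusted p = 0.063) and Cpsf2, a subunit of the 3′ end cleavage complex, at 0.35 (adjusted p = 0.063). Of 11 genes for histone gene transcription 0 were called, also at an unadjusted p under 0.05, and Npat, the coactivator of histone genes, was at -0.13 (adjusted p = 0.45). Of 17 genes for histone chaperones and H4 acetylation, 1 was higher and 1 was lower. Asf1b, a chaperone of H3 and H4 in dividing cells, was higher by 0.39 (adjusted p = 0.046, limma), and Rbbp7, a histone-binding partner of several chromatin complexes, fell by 0.40 on the log2 scale (adjusted p = 0.0041, limma).

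Replacement histones are made outside S phase as well, mainly from polyadenylated mRNA. Of 11 such genes 1 was called, compared with 4.03% of all clusters in either direction (1.41% higher). This was H2afz, which encodes H2A.Z, at 1.03 (standard error 0.28, adjusted p = 0.047, limma). H2afx, the variant phosphorylated at DNA breaks, was at 0.69 (adjusted p = 0.053), H2afj at 0.51 (adjusted p = 0.096), and H1f0, the linker histone of resting cells, at 0.05 (adjusted p = 0.92). Of 12 cell cycle inhibitors and quiescence genes 1 was higher, Cdkn1a, the p21 inhibitor, at 1.22 (adjusted p = 0.024, limma). Btg1, an antiproliferative gene, was at 1.39 (adjusted p = 0.055).

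**Figure D5:**
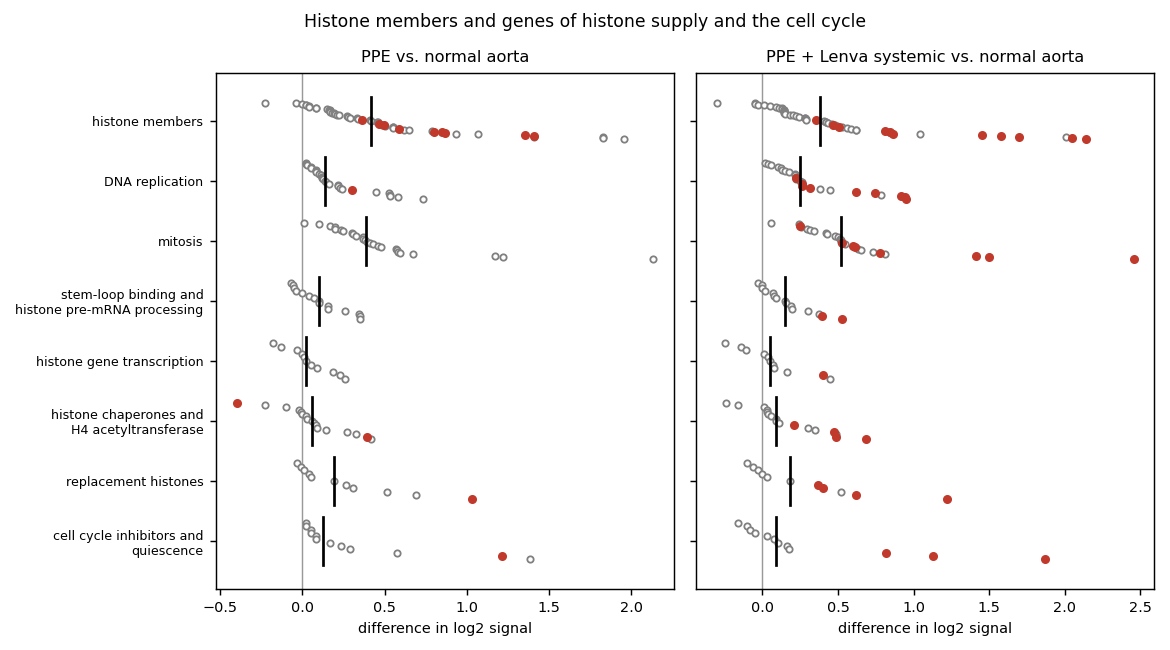
Differences in log2 signal of histone members and of 7 lists of related genes in PPE vs. normal aorta (left) and PPE + Lenva systemic vs. normal aorta (right); each point is a gene, red points were called and vertical bars are medians. Both panels share the normal aortas; the median of the histone members is 0.42 on the left and 0.38 on the right.

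In PPE + Lenva systemic vs. PPE, no histone gene was called. Of 52 members 0 were higher and 0 lower (limma), as were 0 of all 65956 clusters (0%). At an unadjusted p under 0.05, 0 members were higher and 1 was lower, compared with 3.41% and 2.4% of all clusters. The difference was above 0 in 25 of 52 members with a median of -0.01, compared with 0.01 over all clusters. The 95% intervals of 48 members lay within a 2-fold change in either direction, and the intervals reached a median of 0.31 on the log2 scale to either side of the difference. For Hist1h2bl the difference was 0.28 (95% interval -0.44 to 1.01), for Hist1h2bn 0.23 (-0.43 to 0.88) and for Hist1h2aj 0.18 (-0.99 to 1.36).

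The members with the smallest p-values were all H4 genes. Hist2h4 had log2 signals from 6.05 to 6.83 (median 6.25) in PPE and from 5.69 to 6.36 (median 6) in treated aorta, and 5.36 to 6.61 in normal aorta. The groups overlapped, and the difference was -0.40 (95% interval -0.79 to -0.02, unadjusted p = 0.042, adjusted p = 0.85, limma). Hist1h4c had signals of 8.33 to 9.1 (median 8.76) in treated aorta, compared with 8.78 to 9.43 in PPE aorta, a difference of -0.37 (-0.78 to 0.05, adjusted p = 0.91). Hist1h4h, known from averages, was 7.93 ± 0.16 (SD, n = 6) in PPE and 7.67 ± 0.25 (SD, n = 7) in treated aorta, a difference of -0.26 (adjusted p = 0.88). Differences above 0 numbered 2 of 10 in H4, 3 of 5 in H1, 7 of 13 in H2A, 10 of 16 in H2B and 3 of 8 in H3, and the contrast between classes was not tested.

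Related genes were not called in this comparison either. Over all clusters 3.41% were higher at an unadjusted p under 0.05 (limma). Of the 27 DNA replication genes 25 had a difference above 0 (median 0.10) and 4 were higher at an unadjusted p under 0.05 (limma), and of the 26 mitosis genes these numbers were 23 and 1 (median 0.14). Of the smooth muscle markers 0 of 9 were called and 3 were higher at an unadjusted p under 0.05, and of the macrophage markers 0 of 13 and 1.

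In PPE + Lenva systemic vs. normal aorta, a comparison that shares the normal aortas with the first and the treated aortas with the second, 11 of 52 members were higher and 0 lower (limma), compared with 2.77% and 3.33% of all clusters (6.1% in either direction). At an unadjusted p under 0.05, 30 members were higher and 1 was lower, compared with 8.56% and 11.2% of all clusters. The difference was above 0 in 48 members, with a median of 0.38, compared with -0.01 over all clusters. Called members were Hist1h1a, Hist1h2ab, Hist1h2aj, Hist1h2an, Hist1h2ba, Hist1h2bf, Hist1h2bl, Hist1h2bn, Hist1h3e, Hist1h3f and Hist2h2bb. H4 genes were not among them, and their median difference was 0.14. Leaving out normal aorta replicate 1 gave 7 members, replicate 2 gave 5, replicate 3 gave 3 and replicate 4 gave 7. The number was 7 without treated replicate 1, 6 without treated replicate 4 and 5 without treated replicate 6.

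Hist1h2bn had log2 signals of 8.7 to 10.79 (median 9.92) in treated aorta, compared with 7.46 to 8.83 in normal aorta. Only treated replicate 3, the lowest of its group, lay within the normal range, and the difference was 1.58 (standard error 0.32, adjusted p = 0.0091, limma). For PPE vs. normal aorta the difference of this gene was 1.36. Hist1h2bl, at 8.86 to 10.72 (median 10.26) in treated aorta, differed by 1.70 from normal aorta (standard error 0.36, adjusted p = 0.011, limma), again with overlap through treated replicate 3. These 2 genes and Hist1h3f were called in every fit without 1 array.

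Hist1h2aj differed by 2.14 (adjusted p = 0.039, limma) and Hist1h2an by 2.05 (adjusted p = 0.050, limma), with the treated aortas at 12.2 to 15.27 and 12.09 to 15.03. Both overlapped with the normal aortas, and 9 and 14 of 18 fits without 1 array lost the call. Without normal aorta replicate 3 their adjusted p was 0.12 and 0.14 (limma). Hist1h3e differed by 1.45 (adjusted p = 0.034, limma) and was without overlap, at 6.81 to 8.96 in treated and 5.46 to 6.78 in normal aorta. Hist1h3f differed by 0.47 (adjusted p = 0.0087, limma), Hist1h2ab by 0.86 (adjusted p = 0.020), Hist2h2bb by 0.84 (adjusted p = 0.025), Hist1h2bf by 0.51 (adjusted p = 0.027) and Hist1h2ba by 0.35 (adjusted p = 0.022).

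The H1 gene Hist1h1a was called here, with log2 signals of 3.37, 3.47, 3.62, 3.57 and 3.97 in normal aorta and 3.78 to 5.44 (median 4.25) in treated aorta. The normal signals lay below the median over all clusters (4.09). The groups overlapped between treated replicate 5 and normal aorta replicate 5. The difference was 0.81 (standard error 0.23, adjusted p = 0.046, limma), and 13 of 18 fits without 1 array lost the call. Hist1h4c differed by 0.48 in this comparison (adjusted p = 0.19), compared with 0.85 in PPE vs. normal aorta.

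In 6 of the 25 members with arrays every treated array lay above every normal array, compared with 8.63% of the clusters of that table. These were Hist1h2ab, Hist1h2ak, Hist1h2bp, Hist1h3a, Hist1h3e and Hist1h3f. With the deposited averages 7 of the 11 calls were kept, and Hist1h1a, Hist1h2aj, Hist1h2an and Hist1h3e lost theirs (adjusted p = 0.13, 0.098, 0.096 and 0.055, limma). Beside the members, 10 of 27 DNA replication genes, 8 of 26 mitosis genes and 4 of 11 replacement histones were higher, and 13 of 13 macrophage markers. Over all clusters 2.77% were higher. Mki67 differed by 2.45 (adjusted p = 0.019, limma), Mcm6, a subunit of the replicative helicase, by 0.95 (adjusted p = 0.0044), and H2afz by 1.22 (adjusted p = 0.014). Of the processing genes 2 of 15 were higher, Eri1 (0.53, adjusted p = 0.0055) and Cpsf2 (0.40, adjusted p = 0.023).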

How the data were processed

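Expression in 18 aortas was measured on Mouse Transcriptome Array 1.0, each aorta on its own array. The authors deposited log2 signals of 11121 transcript clusters. The submitters' processing notes name Transcriptome Analysis Console 4.0.1.36 and genome build mm10, and the study's methods name SST-RMA summarisation. For all 65956 clusters they deposited group averages, which match Tukey's biweight rather than the plain mean, SDs and detection calls. Their tables also hold fold changes, p-values, FDR and F statistics of their own comparisons, which were not used. No scan date or batch is given in the labels, and all columns of samples were used.

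Groups came from the sample labels. For clusters with values per array, a model of 3 groups without covariates was fitted with limma 3.58.1 in R 4.3.3. For the others the same moderated statistic was formed from average, SD and n. The variance prior (2.14 degrees of freedom) came from the SDs of the 65680 clusters with a variance above 0. Within each comparison the Benjamini-Hochberg adjustment covered the 65956 clusters, with calls at 0.05. The procedure was run on simulated data with independent values for each cluster. Arrays that are low or high for many genes together were not simulated. Precision is limited by the number of arrays.

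Members and gene lists were chosen with earlier results of these data known. Named members were all called members, per class the member with the highest mean signal and that with the smallest p in PPE vs. normal aorta, the 3 with the smallest p in PPE + Lenva systemic vs. PPE, and 6 genes with germ cell or polyadenylated expression. Per list up to 5 genes were named, by size of the difference if called and otherwise by p. Hist1h2af, Hist1h2bj, Btg1, H2afx, H2afj, H1f0, Mcm6 and divergent partners were added after their values were seen. Alternatives covered deposited averages, pairs of groups, dim clusters, 2 rescalings, the prior, a replicate block, the filter of the study's methods and leaving out each array.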

Additional observations from a re-analysis of the deposited data

Results flagged for a closer look

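In 75 groups of arrays of the members, 3 held an array far from the others. This is no more than the share of about 1 in 20 that chance gives. Normal aorta replicate 3 was low for Hist1h3a, at a log2 signal of 5.09 with the nearest array at 5.61, and for Hist1h4c, at 7.28 with the nearest at 8.42. PPE + Lenva systemic replicate 4 was high for Hist1h3e, at 8.96 with the nearest at 7.7.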

How the results depend on the processing

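In PPE vs. normal aorta the 9 members called became 14 when clusters below the median signal were left out, and 3 with a replicate block. The deposited averages also gave 9, with 6 of the 9 kept. The filter of the study's methods, an unadjusted p under 0.05 with at least a 2-fold change, gave 7, with 2 of the 9 kept. With only the 2 groups compared 7 of the 9 were kept, and 8 when dim clusters were left out or after either rescaling. Leaving out 1 array gave 2 to 14, where the 27 members and all other clusters without values per array kept their results from all arrays. In PPE + Lenva systemic vs. normal aorta the 11 became 7 with the deposited averages for every cluster, 7 with the same filter (5 of the 11 kept), and 6 with the replicate block. Leaving out 1 array gave 3 to 15. In PPE + Lenva systemic vs. PPE the count was 0 under every alternative that was run, at the unadjusted 2-fold filter too. No member was called lower under these alternatives. Of the 24 gene results recomputed under alternatives none changed sign, and the other named differences were not recomputed singly. Replicate numbers come from the sample titles, and the labels describe no pairing or batch behind them. Same-numbered arrays correlated between -0.58 and 0.49 over 16 pairs of deviations. Such correlations cannot decide whether these arrays shared a batch. With the block, 1210 and 1715 of all clusters were called in the comparisons with normal aorta, compared with 2656 and 4021 without it. The cause of these changes was not tested.

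Quantile normalization, applied to the clusters with values per array, moved the share of higher calls among all calls from 35.1% to 45.2% in PPE vs. normal aorta and gave 11 members. Counting only clusters with values per array, an alternative chosen after seeing the data, gave 8, 0 and 10 members. Counting every cluster of a member gave the same numbers, since each has 1. Depth is not defined for arrays, and members without values per array could not be checked by array.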

Other observations

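The 15 clusters that name several genes were not counted among the members. In PPE vs. normal aorta all 15 had a difference above 0 (median 0.37), and 3 were higher and 0 lower (limma, adjusted over all clusters). Over all clusters 40.1% lay above 0 (median -0.02), 1.41% were higher and 2.62% lower. The cluster of Hist2h3c1, Hist2h3c2 and Hist2h3b, H3 genes of the family on chromosome 3, had log2 signals of 6.88 to 7.46 in normal, 7.44 to 8.81 in PPE and 7.73 to 9.09 in treated aorta, with differences from normal aorta of 0.99 (adjusted p = 0.040) and 1.03 (adjusted p = 0.022). A cluster of Hist1h2ao, Hist1h2ap, Hist1h2ai and Hist1h2ah, H2A genes, had 5.37 to 6.3, 5.99 to 7.52 and 6.32 to 7.33, with differences of 1.02 (adjusted p = 0.039) and 0.91 (adjusted p = 0.044). An H4 cluster of Hist1h4n and Hist1h4m was at 0.63 (adjusted p = 0.032), with 3.14 to 4.2 in normal and 3.89 to 4.55 in PPE aorta. Between treated and PPE aorta 0 of these 15 clusters were called, and 1 was lower at an unadjusted p under 0.05 (limma), that of Hist1h2be and Hist1h1e (-0.18, adjusted p = 0.78).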
